A study of Homo sapiens with 8 samples.

Results

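HSPA6, HSPA7, HSPA1A, HSPA1B and HSPA1L are the stress-inducible HSP70 genes and their closest relatives, and they were taken by symbol from a deposited table of 3666 genes that the authors listed as different between 2 sorted fractions of a cancer cell line. All 5 were found in that table. Messenger RNA had been sequenced from MIA PaCa-2, an established human pancreatic ductal adenocarcinoma line of wild-type genotype by its labels, after sorting by fluorescence on permeability to lactic acid, which the study used as a measure of metabolic rate. The PHLac-low fraction holds the cells with low permeability and the PHLac-high fraction those with high permeability. Both fractions had been exposed for a short time to medium with lactate and then washed, as part of the sort, and neither received any other treatment. The sort was repeated 4 times, each repeat giving 1 library per fraction, so that 4 PHLac-low and 4 PHLac-high libraries were compared in pairs. The labels do not say whether the repeats came from separate cultures, so the spread between them may be technical in part.

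HSP70 proteins are ATP-driven chaperones that bind exposed hydrophobic stretches of unfolded proteins. Cells carry constitutive members, such as HSPA8 in the cytosol, and inducible members whose genes are switched on by heat, heavy metals, acid or other stresses that unfold proteins. The switch is heat shock factor 1 (HSF1), which forms trimers and binds heat shock elements, inverted repeats of the letters GAA in the promoters of its targets. HSPA1A and HSPA1B encode almost the same major inducible HSP70 protein. HSPA6 encodes HSP70B', a strictly inducible protein that is found in humans and not in mice. HSPA7 is a pseudogene copy of HSPA6, and HSPA1L encodes a relative best known from the testis.

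The genes lie in 2 clusters (RefSeq, GRCh38.p14). HSPA6 (Entrez 3310) spans chr1:161524540-161526894, and the start of HSPA7 (Entrez 3311, chr1:161606172-161608550) is 81632 bases further along the same strand. HSPA1L (Entrez 3305, chr6:31809619-31815283), HSPA1A (Entrez 3303, chr6:31815543-31817942) and HSPA1B (Entrez 3304, chr6:31827738-31830254) are neighbours on chromosome 6. HSPA1L is read from the opposite strand, and its start is 260 bases from that of HSPA1A. The sequences upstream of HSPA6, HSPA1A and HSPA1B are shown because these genes were the ones most abundant in the PHLac-high fraction among the 5, and because heat shock elements are the sites through which such genes are known to be induced. Capitals mark every match to GAANNTTC or TTCNNGAA, which read the same on both strands, and positions are counted back from the RefSeq start site. Each sequence starts at position -250 and stops before the first transcript start annotated in RefSeq or GENCODE 29.
HSPA6, chr1:161524290-161524539, plus strand: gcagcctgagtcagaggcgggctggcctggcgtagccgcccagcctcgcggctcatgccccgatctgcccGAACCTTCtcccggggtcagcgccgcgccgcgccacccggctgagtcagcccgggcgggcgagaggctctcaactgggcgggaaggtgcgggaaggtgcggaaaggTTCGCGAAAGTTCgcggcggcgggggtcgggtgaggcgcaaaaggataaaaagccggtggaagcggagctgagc
HSPA1A, chr6:31815293-31815463, plus strand: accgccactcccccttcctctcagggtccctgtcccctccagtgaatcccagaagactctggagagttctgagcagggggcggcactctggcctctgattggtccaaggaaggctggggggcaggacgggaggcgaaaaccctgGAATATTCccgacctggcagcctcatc
HSPA1B, chr6:31827488-31827734, plus strand: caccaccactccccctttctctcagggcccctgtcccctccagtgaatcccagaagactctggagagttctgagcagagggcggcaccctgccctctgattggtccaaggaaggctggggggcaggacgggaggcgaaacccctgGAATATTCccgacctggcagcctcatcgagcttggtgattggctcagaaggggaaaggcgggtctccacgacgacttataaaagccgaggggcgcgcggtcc

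HSPA6 carried an array of 3 alternating units, TTCGCGAAAGTTC, at positions -74 to -62, and a separate GAACCTTC at -180 to -173. Arrays of 3 such units, alternating in direction with 2 bases between them and starting with either, were present in 155 of 35116 RefSeq promoters cut to the same 250 bases (0.441%). HSPA1A had GAATATTC at -106 to -99 and HSPA1B had the same letters at -105 to -98. GAANNTTC was present in 5.78% of those promoters, and either 2-unit form in 11.6%. HSPA1L, on the other strand of the same stretch of DNA as HSPA1A, had this GAATATTC at -161 to -154 counted from its own start. HSPA7 has no entry in the promoter table. Both HSPA1A and HSPA1B also held TATAAA, at -30 to -25 and -29 to -24 (10.7% of promoters on either strand), and a pair of CCAAT boxes on the minus strand (32.0% of promoters have at least 1 on either strand). Of these the TATAAA and 1 CCAAT of HSPA1A lie past the end of the sequence shown. The 250 upstream bases of HSPA1A and HSPA1B were identical at 235 of 249 aligned positions (94.4%), with 2 gap bases. HSPA1A and HSPA6 agreed at 151 of 199 (75.9%), but with 102 gap bases, so this percentage covers the aligned part only. Unrelated sequences were not aligned for comparison, so no likeness is read from it. These matches describe letters, and binding of a factor was not measured.

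How far reads can be told apart between copies follows from the transcripts (GENCODE 29). Of all 100-base stretches of the HSPA1A transcript, 69.9% occur unchanged in HSPA1B, and 68.8% of those of HSPA1B occur in HSPA1A. Of the 100-base stretches of HSPA6, 27.6% occur in HSPA7, and 34.4% of those of HSPA7 occur in HSPA6. None of that length was shared between HSPA1L, the HSPA1A and HSPA1B pair, and the HSPA6 and HSPA7 pair. Of 50-base stretches, 61 of HSPA1L (2.44%) occur in HSPA1A and 61 in HSPA1B. At that length 45.5% of HSPA6 occurs in HSPA7, and 56.3% of HSPA7 in HSPA6. How reads that fit more than 1 gene were counted is not given in the sources used here. The division within each pair is thus uncertain, and sums are given beside the single genes. The part of shared reads in the HSPA1L counts was not tested.

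The values are normalised counts, that is, read counts which the authors divided by 1 size factor per library. Within each library, 100% of the entries came out as whole-number multiples of a smallest unit (tolerance 0.01 of it), called a step here. That a step is worth 1 read is inferred from these values and is not stated in the sources used here, and a separate check of the low values accepted it for 4 of the 8 libraries. Size factors ran from 0.755 to 2.09, and the listed genes summed to between 8979276 and 23176205 steps per library, which is part of each library and not its depth. Scored on the leading principal component of the table, which held 54.7% of the variance, the PHLac-low library of repeat 4 was at -6.88, against -25.95 to -24.45 for the other PHLac-low libraries, and the PHLac-high library of repeat 4 was at 33.4, against 14.1 to 18.5 for the other PHLac-high libraries. Both libraries of repeat 4 thus lay apart in the same direction, and results that rest on them are also given without repeat 4. Of 11 marker genes of epithelial, mesenchymal and other cells, 3 were in the table, the ductal keratin KRT19, which averaged 17367 normalised counts across the PHLac-low libraries against 20359.6 across the PHLac-high ones, the leukocyte marker PTPRC (262 against 103) and the fibroblast collagen COL1A1 (137 against 85.0). The part of other cells in the results was not tested. The other markers were not analysed here.

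Since the 5 genes were picked for how they moved between the fractions, their levels and differences are described without a test. In PHLac-low cells the normalised counts of HSPA6 were 35.2, 87.4, 169.8 and 498, taking repeats 1 to 4 in turn. In PHLac-high cells of the same repeats they were 6826, 11143, 5544 and 6425. The groups were far apart: the lowest PHLac-high value was 11.1 times the highest PHLac-low value. Within repeats the PHLac-high level was 194, 128, 32.7 and 12.9 times that of PHLac-low. The mean within-repeat difference on the log2(normalised count + 1) scale was 5.81 ± 1.79 (SD, n = 4), or 6.52 without repeat 4. In the authors' deposited table the log2 fold change of HSPA6 is 5.85, the second largest of 3666. The gene above it, MUC17, is given 7.12 and averaged 0.240 normalised counts in PHLac-low against 59.3 in PHLac-high, whereas HSPA6 averaged 198 ± 208 and 7485 ± 2497 (SD, n = 4). Below it, the authors' deposited table gives ST14 4.50 and B3GNT6 4.42, both with a mean under 20 in PHLac-high, and EFNB2 3.57.

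HSPA1A, the more abundant copy of the major inducible HSP70, had 1347, 1886, 2628 and 3605 normalised counts in PHLac-low and 9883, 10515, 9730.2 and 11496 in PHLac-high, in repeats 1 to 4. HSPA1B had 609.8, 751, 1146 and 1468 in PHLac-low and 4164, 4771, 4254 and 4419 in PHLac-high. For both copies every PHLac-high library lay above every PHLac-low library, by at least 2.70 times for HSPA1A and 2.84 times for HSPA1B. The mean within-repeat difference was 2.23 ± 0.55 (SD, n = 4, log2 scale) for HSPA1A and 2.23 ± 0.58 for HSPA1B. Without repeat 4 it was 2.41 and 2.44. These places were 34 and 32 among 3666 genes by log2 fold change in the authors' deposited table. Genes beside them there had small counts: GCGR, ACTBL2, SCUBE2, FAM209A, IL16, RAB33A and MYLK2 reached PHLac-high means of 16.2 to 53.7, against 10406 for HSPA1A and 4402 for HSPA1B.

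Summed over the near-identical copies, HSPA1A and HSPA1B had 1957, 2636, 3774 and 5073 normalised counts in PHLac-low and 14047, 15286, 13984 and 15915.5 in PHLac-high. The difference of this sum was 2.84, 2.54, 1.89 and 1.65 in repeats 1 to 4 on the log2 scale, close to that of each copy. HSPA1B made up 31.2%, 28.5%, 30.4% and 28.9% of the sum in PHLac-low and 29.6%, 31.2%, 30.4% and 27.8% in PHLac-high. The 2 means, 29.7% ± 1.2 and 29.8% ± 1.5 (SD, n = 4), differed by less than their spread.

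HSPA7, the pseudogene, had very few reads. It was at 0.858, 1.23, 2.40 and 3.08 in PHLac-low, which are 1, 1, 5 and 3 steps, and at 26.9, 32.4, 25.1 and 19.9 in PHLac-high, which are 23, 32, 21 and 15 steps. Over all 4 repeats that makes 10 steps against 91, a ratio per unit of size factor of 13.3 (95% exact binomial interval 6.93 to 28.8, for counting error alone and holding only if a step is 1 read). The 2 groups did not overlap. On the log2(normalised count + 1) scale the mean difference was 3.28 ± 0.77 (SD, n = 4), which understates the change of so low a gene. HSPA7 accounted for 0.615% to 2.38% of the HSPA6 and HSPA7 sum in PHLac-low and for 0.290% to 0.450% in PHLac-high. Adding HSPA7 changed the mean HSPA6 difference from 5.81 to 5.80.

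HSPA1L was the one member that differed from the others in repeat 4. Its normalised counts were 42.0, 93.5, 94.96 and 48.3 in PHLac-low and 279, 362, 348 and 113 in PHLac-high. The groups still did not overlap, but the margin was small, the lowest PHLac-high value being 1.19 times the highest PHLac-low value. Relative to the sum of HSPA1A and HSPA1B, HSPA1L stood at 2.15%, 3.55%, 2.52% and 0.952% in PHLac-low and at 1.99%, 2.37%, 2.49% and 0.707% in PHLac-high. Repeat 4 was thus the lowest of both fractions in this ratio. The mean difference of HSPA1L between fractions was 1.93 ± 0.61 (SD, n = 4, log2 scale) and 2.17 without repeat 4.

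**Figure D1:**
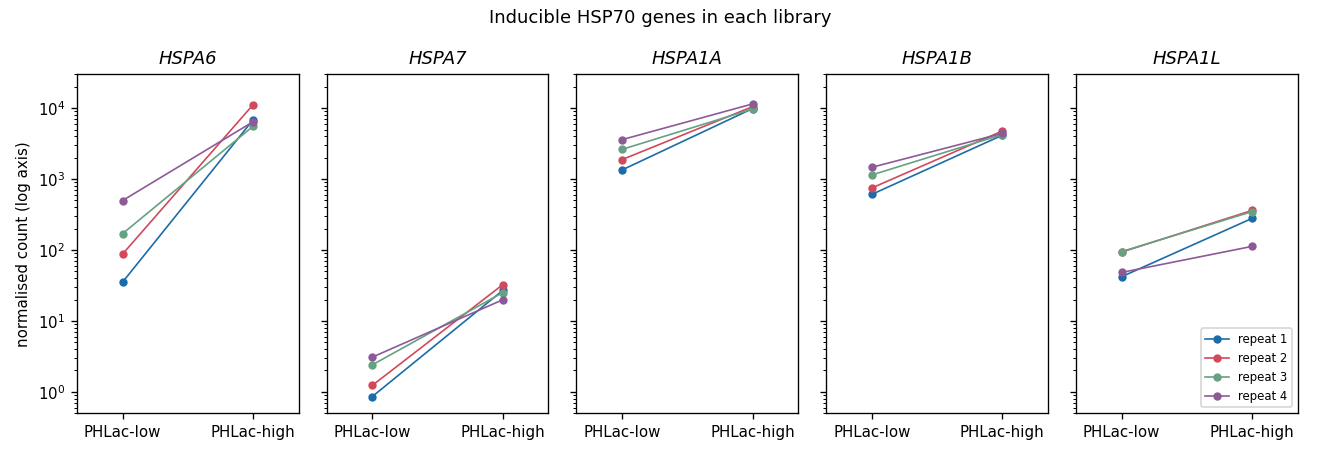
Normalised count (vertical log axis) of each inducible HSP70 gene in the PHLac-low and PHLac-high library of each repeat, with a line joining the libraries of 1 repeat. Every line rises, the PHLac-low points of HSPA6 spread from 35.2 to 498, and the repeat 4 point of HSPA1L in PHLac-high sits at 113, under the other 3.

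All 5 genes were higher in PHLac-high in all 4 repeats, against 56.2% of all listed genes. All 5 also had groups that did not overlap, against 23.3% of all listed genes with every PHLac-high value above every PHLac-low value and 13.4% with every one below. Both counts come from the contrast for which the genes were chosen, so nothing is read from them. In bulk RNA a larger share of cells that express a gene and more RNA per cell cannot be told apart.

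Levels of different genes were compared per kilobase of the longest transcript. In PHLac-low the order was HSPA1A (953 ± 394 normalised counts per kilobase, SD, n = 4), HSPA1B (394 ± 154), HSPA6 (83.3 ± 87.7), HSPA1L (27.4 ± 11.2) and HSPA7 (0.982 ± 0.534). In PHLac-high HSPA6 stood second, with 3157 ± 1053, after HSPA1A with 4191 ± 323 and before HSPA1B with 1746 ± 106, HSPA1L with 108 ± 45 and HSPA7 with 13.5 ± 2.7. The ranges of HSPA1A and HSPA6 overlapped in PHLac-high, as did those of HSPA6 and HSPA1L in PHLac-low, so those neighbours were not separated by their spread. The ranges of HSPA1A and HSPA1B also overlapped in PHLac-low, but within each library HSPA1A was the higher of the pair. The other neighbours did not overlap. If reads that fit more than 1 gene were left out, HSPA1A and HSPA1B would lose a larger share than HSPA6. The order of HSPA6 among them, and the size of its ratio to their sum below, are therefore uncertain. Even in PHLac-high each inducible gene stayed far under the constitutive HSPA8, which had 22442 ± 2464 per kilobase in PHLac-low and 32970.2 ± 2763 in PHLac-high.

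HSPA6 made up a larger part of the family in PHLac-high. Its ratio to the summed HSPA1A and HSPA1B counts was 0.0180, 0.0331, 0.0450 and 0.0982 in PHLac-low and 0.486, 0.729, 0.396 and 0.404 in PHLac-high. It made up 1.73% to 8.86% of the 5-gene sum in PHLac-low and 27.9% to 41.5% in PHLac-high. The 5-gene sum itself was 2035, 2819, 4041 and 5622 in PHLac-low and 21179, 26824, 19902 and 22473 in PHLac-high, a mean difference of 2.73 ± 0.69 (SD, n = 4, log2 scale). As a share of all signal in the listed genes this was 0.0185% to 0.0467% in PHLac-low and 0.151% to 0.208% in PHLac-high.

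**Figure D2:**
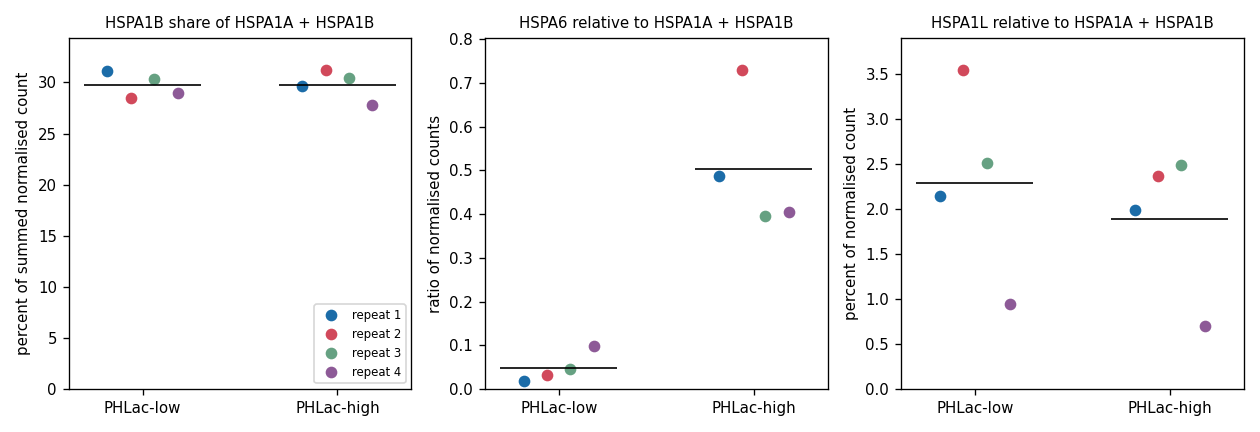
Ratios between members in each library (points, coloured by repeat) with the mean of each fraction as a line: HSPA1B as a percentage of HSPA1A plus HSPA1B, HSPA6 divided by that sum, and HSPA1L as a percentage of it. The first ratio is near 29.7% in both fractions, the second is at most 0.0982 in PHLac-low and at least 0.396 in PHLac-high, and in the third repeat 4 is lowest in both.

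The repeats differed in the PHLac-low level of these genes. Taken by repeat number, the PHLac-low values of HSPA6, HSPA7, HSPA1A and HSPA1B each went up from repeat 1 to 4, a pattern seen in 5.65% of all listed genes. HSPA7 had only 1, 1, 5 and 3 steps in these libraries. Its rise from repeat 1 to 2 is 1 step in each, over a smaller size factor in repeat 2, so its order is not established. HSPA1L did not follow the pattern. None of the 5 showed this order in PHLac-high (3.57% of listed genes). The labels give the number of a repeat and no date, so it is not known whether the numbers are an order in time, and this pattern was itself part of how the genes were chosen. From repeat 1 to repeat 4 the PHLac-low level differed by 14.2 times for HSPA6, 3.59 times for HSPA7, 2.68 times for HSPA1A and 2.41 times for HSPA1B, and by 1.15 times for HSPA1L. Among the 3324 listed genes with a PHLac-low mean of at least 100, the ratio for HSPA6 was the largest, that for HSPA1A ranked 11 and that for HSPA1B ranked 20, while the median was 1.02 and the 5th and 95th percentiles were 0.581 and 1.59. TMEM158 came next to HSPA6, with 5.39. The mean for this filter was taken over all 4 PHLac-low libraries. HSPA6 passed it only through repeat 4, with 498 there against 35.2, 87.4 and 169.8 in repeats 1 to 3. Genes with lower PHLac-low means were not ranked, so the first rank of HSPA6 is a description only. Repeat 4 was also the repeat whose libraries lay apart on the leading principal component, and its part in these ratios was not tested. From repeat 1 to repeat 3, HSPA6 differed by 4.83 times and ranked 4 of 3324. HSPA1A differed by 1.95 times with rank 69 and HSPA1B by 1.88 times with rank 85. Repeat 4 is left out of these ratios but not out of the filter on the mean. HSPA7 differed by 2.80 times and HSPA1L by 2.26 times in that comparison, beside a median of 1.02.

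PHLac-high levels were steadier for HSPA6, HSPA1A and HSPA1B. The highest PHLac-high value was 1.18 times the lowest for HSPA1A and 1.15 times for HSPA1B, against 2.68 and 2.41 times in PHLac-low. For HSPA6 it was 2.01 times against 14.2. The SD of log2(normalised count + 1) over the repeats was 1.60 in PHLac-low and 0.44 in PHLac-high for HSPA6, 0.61 and 0.11 for HSPA1A, and 0.57 and 0.09 for HSPA1B, beside medians of 0.24 and 0.27 over all listed genes. HSPA1L went the other way, with 0.61 in PHLac-low and 0.78 in PHLac-high. For HSPA1A and HSPA1B the spread in PHLac-low was thus above that of the median listed gene, and the spread in PHLac-high was below it.

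The difference between fractions was smaller at each next repeat number in every member. For HSPA6 it was 7.56, 6.98, 5.02 and 3.69 on the log2 scale. For HSPA7 it was 3.91, 3.90, 2.94 and 2.35, where the PHLac-low values of repeats 1 and 2 are 1 step each. For HSPA1A it was 2.87, 2.48, 1.89 and 1.67, and for HSPA1B 2.77, 2.67, 1.89 and 1.59. For HSPA1L it was 2.70, 1.94, 1.86 and 1.20. A signed difference, PHLac-high minus PHLac-low, that was lower at each next repeat number was found in 6.19% of all listed genes. Genes lower in PHLac-high meet this where their fall grew. The members were chosen in part for their PHLac-low levels by repeat, so nothing is read from this share. In HSPA6, HSPA1A and HSPA1B the PHLac-high level of repeat 4 was 0.941, 1.16 and 1.06 times that of repeat 1. Between repeats 1 and 4 their difference thus went mainly with the PHLac-low level. From repeat 2 to 3 both fractions of HSPA6 moved, PHLac-high from 11143 to 5544 and PHLac-low from 87.4 to 169.8. In HSPA1L, too, both fractions were involved. Between repeats 1 and 2 both levels were higher in repeat 2, PHLac-low by more (42.0 and 93.5, against 279 and 362 in PHLac-high), and between repeats 3 and 4 both were lower in repeat 4, PHLac-high by more (348 and 113, against 94.96 and 48.3 in PHLac-low).

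**Figure D3:**
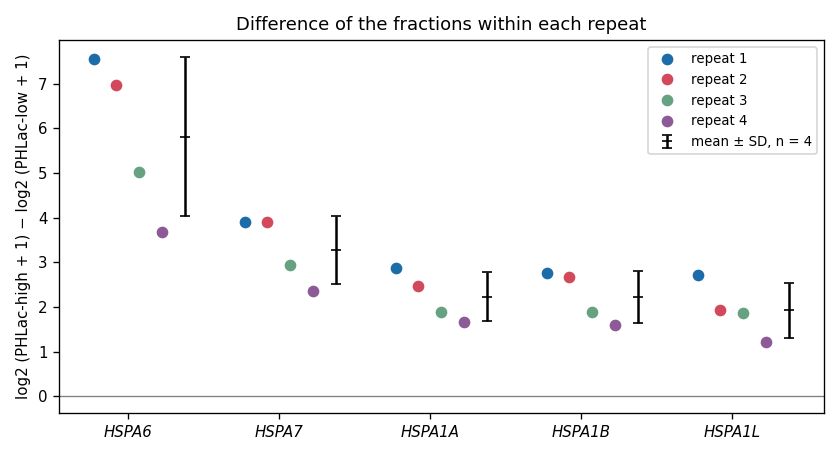
Within-repeat difference between fractions, as log2(PHLac-high + 1) minus log2(PHLac-low + 1), for each inducible HSP70 gene, with the mean and SD of the 4 repeats in black. All points lie above 0, and in each gene repeat 1 is the highest and repeat 4 the lowest, from 7.56 to 3.69 for HSPA6.

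Across the 8 libraries the members followed each other closely. Pearson's r of log2(normalised count + 1) with HSPA6 was 0.996 for HSPA1B, 0.995 for HSPA1A, 0.987 for HSPA7 and 0.819 for HSPA1L. Outside the family the genes with the highest r were CCDC117 (0.989), IER5 (0.988), VCPKMT (0.986), PPP2CB (0.986) and ZFAND2A (0.985). These r values are a description over 8 libraries that share the contrast between fractions. The 5 genes differed in size of change: ZFAND2A, which encodes a proteasome-associated stress protein, had 313, 410, 468 and 511 normalised counts in PHLac-low and 1857, 2066, 1406 and 1720 in PHLac-high, while CCDC117 had means of 1536 and 2126. IER5, an immediate early gene, had 1274, 1447, 1591 and 2129 in PHLac-low and 4063, 4614, 4243 and 5075 in PHLac-high.

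Other genes of the heat shock response were then tested with limma, with the repeat as a block, on log2(normalised count + 1). Of all listed genes 58.7% passed as higher and 41.2% as lower at a Benjamini-Hochberg adjusted p of 0.05. The table was selected by the authors for small p-values in the same libraries, so a pass says little and the direction and size are what is described. The median log2 change over all listed genes was 0.25. After scaling each library to the upper quartile of its listed genes the median was 0.02, and 36% in place of 58.8% of the passing genes were higher. That quartile was taken over preselected genes, most of them higher in PHLac-high, so part of a shared shift is removed by construction. Without the block 743 of the 3666 listed genes passed as higher and 392 as lower, and after this scaling 850 and 1510. No result about a list is read from its counts under these settings.

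Known HSF1 targets other than the 5 members were the list with the largest median. Of 33 such genes, 30 were in the table, and all 30 rose in PHLac-high (median log2 change 0.65). Besides ZFAND2A, which rose by 2.06 ± 0.16 (SE), the largest increases were in DNAJB4, a J-domain cochaperone (1.89 ± 0.12), BAG3, which releases the client from HSP70 and directs it to autophagy (1.87 ± 0.10), IER5 (1.503 ± 0.08) and HSPH1, a nucleotide exchange factor of the HSP110 family (1.48 ± 0.13), with limma adjusted p from 1.24e-05 to 7.80e-05. The smallest was in HSPB1, a small heat shock protein (0.21 ± 0.06). All stayed below the 5.81 of HSPA6, and ZFAND2A alone exceeded the 1.93 of HSPA1L. Without the block 18 of the 30 passed, and after upper-quartile scaling 23, beside 1135 and 2360 of the 3666 listed genes. Of 27 of these genes with a RefSeq promoter, 8 (29.6%) held GAANNTTC or TTCNNGAA in the 250 upstream bases, against 8.29% of listed genes with a promoter. The 8 were DNAJA1, DNAJB6, HSPA8, HSPB1, CHORDC1, ZFAND2A, IER5 and TCP1.

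The other HSP70 family genes rose by less than the inducible ones. Of 12, 8 were in the table and all 8 rose (median log2 change 0.49). HSPA8, the constitutive cytosolic HSP70, averaged 55275 ± 6068 normalised counts in the one fraction and 81206 ± 6806 in the other (SD, n = 4), higher by 0.56 ± 0.05 (SE) on the log2 scale, with an adjusted p of 8.95e-05 by limma. The largest increase was that of HSPH1, given above. HSPA2 rose by 0.81 ± 0.18, HSPA4L by 0.79 ± 0.15 and HSPA14 by 0.43 ± 0.06. HSPA5, the HSP70 of the endoplasmic reticulum, rose by 0.37 ± 0.07, and HSPA9, that of mitochondria, by 0.34 ± 0.05. Of this list 3 genes passed without the block and 5 after upper-quartile scaling, beside 1135 and 2360 of the 3666 listed genes.

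Cochaperones of HSP70 are J-domain proteins, which deliver clients and stimulate its ATPase, and exchange factors, which release ADP. Of 34, 17 were in the table and all 17 rose (median log2 change 0.43). Beside DNAJB4 and BAG3 these included DNAJA1 (1.29 ± 0.10, SE), DNAJB1, the main partner of inducible HSP70 (1.29 ± 0.09), and DNAJA4 (0.88 ± 0.07). Of the 30 genes for HSP90 and its cochaperones, small heat shock proteins and chaperonins, 18 were in the table, with 17 higher and 1, AHSA2, lower (median 0.37). The largest increases there were in CHORDC1, an HSP90 cochaperone (1.29 ± 0.13), HSPE1 (0.76 ± 0.06) and HSPD1 (0.60 ± 0.05), which form the mitochondrial chaperonin, AHSA1, which activates the HSP90 ATPase (0.74 ± 0.05), and TCP1, a subunit of the cytosolic chaperonin (0.60 ± 0.05). Without the block 7 cochaperones and 5 HSP90, small heat shock protein and chaperonin genes passed, beside 1135 of the 3666 listed genes. After upper-quartile scaling 10 and 10 passed, the latter with 9 higher and 1 lower, beside 2360 of the 3666. The lists share members with the HSF1 targets.

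Of 14 heat shock factors and their regulators, 4 were in the table, 1 of them higher and 3 lower: HSF4, a heat shock factor best known from the lens, fell by 0.92 on the log2 scale, TTC5 fell by 0.33 and HDAC6, a deacetylase that senses aggregates, fell by 0.28, while SIRT1, a deacetylase of HSF1, rose by 0.53. HSF1 and HSF2 were not analysed here. Without the block 2 of the 4 passed, beside 1135 of the 3666 listed genes.

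Other stress programmes were counted beside the heat shock genes. Of 17 proteotoxic and oxidative stress genes 9 were in the table and all 9 rose (median log2 change 0.53), among them HMOX1, which degrades haem (1.36 ± 0.16, SE), the transcription factor ATF3 (1.28 ± 0.14), SRXN1 (0.84 ± 0.07), PPP1R15A (0.72 ± 0.10) and TXNRD1 (0.53 ± 0.06). Of 18 immediate early genes, which respond to stimulation within minutes, 11 were in the table, with 7 higher and 4 lower. JUN rose by 0.93 and FOSL1 by 0.73, and JUNB fell by 0.93 and NR4A2 by 1.21. Without the block 5 of the 9 passed, and of the 11 immediate early genes 4 passed as higher and 0 as lower. After upper-quartile scaling 6 of the 9 passed, and of the 11 immediate early genes 4 as higher and 4 as lower. Over all 3666 listed genes 1135 passed without the block and 2360 after this scaling. Their part in the HSP70 differences was not tested.

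**Figure D4:**
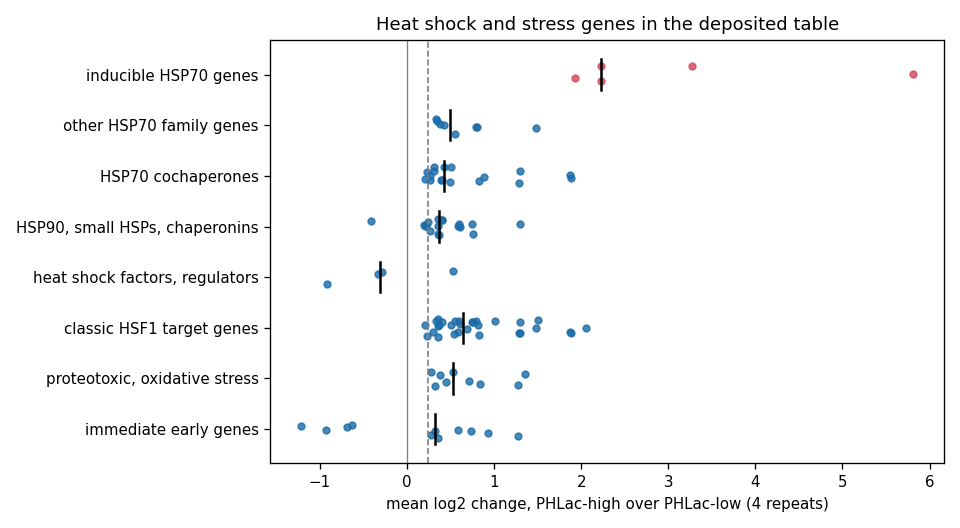
Mean log2 change between fractions of every listed gene (points) in the inducible HSP70 family (red) and in 7 gene lists (blue), with the median of each list as a black bar and the median of all listed genes, 0.25, as a dashed line. The inducible HSP70 genes lie between 1.93 and 5.81, and the HSF1 targets have the next largest median, 0.65.

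In these lists a PHLac-low level that was larger at each next repeat number was found in 3 of the 30 HSF1 targets, 1 of the 17 cochaperones, 0 of the 8 other HSP70 genes, 1 of the 18 genes for HSP90, small heat shock proteins and chaperonins, 0 of the 4 heat shock factors and regulators, 2 of the 9 proteotoxic and oxidative stress genes and 0 of the 11 immediate early genes, beside 5.65% of all listed genes. The median ratio of repeat 4 to repeat 1 in PHLac-low was 1.30 for the HSF1 targets, 1.305 for the cochaperones and 1.25 for the other HSP70 genes, beside 1.02 over all listed genes. It was 1.316 for the HSP90, small heat shock protein and chaperonin genes, 1.21 for the proteotoxic and oxidative stress genes, 0.847 for the heat shock factors and regulators and 0.781 for the immediate early genes. The signed difference, PHLac-high minus PHLac-low, was lowest in repeat 4 for 12 of the 30 HSF1 targets and 6 of the 17 cochaperones. It was lowest there for 2 of the 8 other HSP70 genes and 4 of the 18 HSP90, small heat shock protein and chaperonin genes. The same held for 1 of the 4 heat shock factors and regulators and 6 of the 9 proteotoxic and oxidative stress genes. It also held for 5 of the 11 immediate early genes, and for 1312 of the 3666 listed genes. A gene lower in PHLac-high, such as HSF4, is counted here where its fall was largest in repeat 4.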

How the data were processed

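Per the submitters' processing notes, STAR, SAMtools, Subread and DESeq2 were used with genome build hg38; their roles, versions and settings, and whether counting used strand, are not given in the sources used here. The authors deposited 1 table, whose columns match the sample descriptions, with a read signal per gene and library (counts divided by a size factor), a log2 fold change and an adjusted p-value. The highest deposited p-value is 0.05, so the table holds genes that passed that threshold and other genes were not analysed here. No per-sample column was left unused.

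The members and the gene lists were chosen with earlier results of these data known. Libraries of a repeat were treated as paired because the series text says so; after subtracting group means, the 2 libraries of a repeat correlated across genes at 0.534, 0.66, 0.73 and 0.763. limma 3.58.1 (R 4.3.3, empirical Bayes with trend) was fitted to log2(value + 1) of all 3666 genes with the repeat as a block, with Benjamini-Hochberg adjustment and a threshold of 0.05. On simulated counts with 200 of 3666 genes changed by a factor of 2 it recovered 98.5% with 13 false calls. The simulation set the same extra spread for every gene and left the other genes unchanged. This table was preselected for differences, so these figures are not its error rates. List genes were matched by symbol, Entrez identifier or older symbol. The named genes were the members, up to 5 genes per list with the largest absolute change past the threshold, the 5 most correlated with HSPA6, and the genes ranked next to HSPA6, HSPA1A and HSPA1B; any other gene named was chosen after its values were seen. Upstream sequences came from RefSeq (GRCh38.p14), found for 4 of the 5 members, and transcripts and lengths from GENCODE 29. Alternatives were no block, pseudocounts of 0.1 and 10, a minimum mean of 100 and leaving out each repeat. Libraries were also rescaled to the upper quartile or to the total of the listed genes.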

Additional observations from a re-analysis of the deposited data

Results flagged for a closer look

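In 36 groups of 4 values (members, sums, ratios and the first principal component), the gap between the farthest value and its nearest neighbour was set against the whole range of the group. Chance picks out about 1.8 such groups, and 2 were picked out, which share libraries with the others and are not independent. The first was the first principal component in the PHLac-low fraction, where the library of repeat 4 was apart by 0.922 of the range. The second was the 5-gene sum as a percentage of all listed signal in the PHLac-high fraction, where repeat 2, at 0.208%, was apart from 0.151%, 0.154% and 0.160% by 0.85 of the range. HSPA6 was the member behind that value, with 11143 normalised counts in repeat 2 against 5544 to 6826 in the other PHLac-high libraries.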

How the results depend on the processing

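The log2 changes of the 5 members and of the 3 sums were recomputed under each alternative, and 71 values moved by less than 1 SD between repeats while 1 moved by more. This was HSPA7, whose change was 1.593 with a pseudocount of 10, as its PHLac-low values are all under 4. The 71 include the values without the replicate block, equal by construction, and sums that nearly repeat their largest member. The SD is also a wide yardstick, 1.79 on the log2 scale for HSPA6, so the 71 are no measure of robustness. Leaving out 1 repeat gave 5.229 to 6.52 for HSPA6, 3.066 to 3.584 for HSPA7, 2.013 to 2.414 for HSPA1A, 2.049 to 2.442 for HSPA1B and 1.669 to 2.169 for HSPA1L. Without the replicate block the mean changes of balanced pairs are the same by construction, and the number of listed genes past the threshold went from 3663 to 1135; it was 2360 after upper-quartile scaling and 3468 to 3627 when 1 repeat was left out. Without the replicate block 3 other HSP70 genes, 7 cochaperones, 5 HSP90, small heat shock protein and chaperonin genes, 2 heat shock factors and regulators, 18 HSF1 targets, 5 proteotoxic and oxidative stress genes and 4 immediate early genes passed. After upper-quartile scaling 5 other HSP70 genes, 10 cochaperones and 10 HSP90, small heat shock protein and chaperonin genes passed. The cause was not tested. Count tests with edgeR and DESeq2 were not run because whole reads were accepted as recovered in 4 of the 8 libraries only; why the other 4 were not accepted was not tested. Depth limits HSPA7 most, with 1 to 5 steps per PHLac-low library.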

Other observations

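Genes around the 2 clusters were looked up to see what the neighbouring rows hold. Within 100 kb of HSPA6 and HSPA7, 41 other genes are annotated in RefSeq and 0 of them are in the deposited table. Most of the 41 are transfer RNA genes. Within 100 kb of HSPA1A, HSPA1B and HSPA1L, 25 others are annotated and 4 are in the table. The share of all annotated genes that are in the table was not computed, so nothing is read from either count. CLIC1, an intracellular chloride channel protein, was higher by 0.29 on the log2 scale and NEU1, a lysosomal sialidase, by 0.30. EHMT2, a histone methyltransferase, had a log2 change of -0.27 and the small nucleolar RNA gene SNORD52 one of -1.76, its normalised count averaging 20.7 across PHLac-low libraries and 5.96 across PHLac-high ones. These changes, -1.76 to 0.30, are below the 1.93 to 2.23 of HSPA1L, HSPA1A and HSPA1B beside them.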
